A study of Mus musculus with 378 samples.

Results

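Non-cycling CD8 cells are single tumour-infiltrating CD8 T cells, from mice bearing the melanoma line B16F10, in which neither Mki67 nor Top2a RNA was found. Mki67 and Top2a are proliferation genes that dividing cells transcribe. The cells were chosen by these measured FPKM values (fragments per kilobase of transcript, scaled to library size) alone: at least 1000 genes above 0, at least 1 of Cd3d, Cd3e and Cd3g above 0, B2m above 0, and Mki67 and Top2a both at 0. The Cd3 genes encode invariant chains of the T cell receptor complex, and B2m encodes the light chain of class I molecules. These criteria gave 84 cells of 374 single-cell libraries in the series, 56 of 92 CD8 libraries labelled KO and 28 of 94 CD8 libraries labelled WT. The cells labelled KO came from tumour-bearing mice labelled IL27raKO and those labelled WT from tumour-bearing wild type mice, both on C57BL/6, and both were isolated as CD8+ T cells of the tumour. The labels used here give no Cre or cell type for the Il27ra deletion and no age. They also name no animal, so each genotype is 1 sample, its cells are not replicates, and no test between genotypes was possible. In their titles all CD8 libraries labelled KO carry the word rabbit and all labelled WT the word cat. What these words stand for was not interpreted. A difference between these sets of libraries cannot be told apart from a difference between genotypes. SDs are over cells, and intervals are exact 95% Clopper-Pearson intervals that cover counting error only.

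Il27ra encodes the specific chain of the receptor for IL-27, a cytokine of myeloid cells that signals in T cells through STAT proteins and is known to induce Il10 and coinhibitory receptor genes. Tumour CD8 cells range from memory-like cells, which carry the IL-7 receptor and homing receptors, to exhausted cells, which carry PD-1, LAG-3, TIM-3 and TIGIT together. Dividing cells have more RNA and many genes of their own, so a difference in the share of dividing cells can appear as a difference in many genes. The question here is which genotype differences stayed once dividing cells and libraries lacking B2m or every Cd3 gene were out.

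The criteria removed unequal shares of both genotypes. Of cells with at least 1000 genes, 0 of 74 labelled KO and 8 of 67 labelled WT lacked B2m, and 3 of 74 labelled KO and 8 of 67 labelled WT lacked all Cd3 genes. Of the 71 cells labelled KO and 56 labelled WT that passed both, 56 labelled KO (78.9%, 67.6 to 87.7%) and 28 labelled WT (50%, 36.3 to 63.7%) had neither Mki67 nor Top2a. In the cells that remained the median number of genes above 0 was 2753.5 (1476 to 4793) in cells labelled KO and 2659.5 (1627 to 4118) in cells labelled WT, and the median FPKM summed over genes was 943585 in cells labelled KO and 920684 in cells labelled WT. The least complex cells inside the 1000-gene threshold had 1476 and 1877 genes among those labelled KO and 1627 and 2048 among those labelled WT. Outside it, 0 libraries labelled KO and 1 labelled WT, with 756 genes, met the other criteria. The median cells of the genotypes were thus close in complexity.

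Il27ra RNA was not lower in the cells labelled KO. It was above 0 in 29 of 56 cells labelled KO (51.8%, 38 to 65.3%) and in 10 of 28 labelled WT (35.7%, 18.6 to 55.9%). Its mean log2(FPKM + 1) was 3.32 ± 3.56 in cells labelled KO (SD, n = 56) and 1.63 ± 2.58 in cells labelled WT (n = 28), a difference of 1.70. Among cells with Mki67 or Top2a the difference was 1.54, and between the CD8 population libraries it was 0.92. The gene lies on chromosome 8 at 84030294 to 84042589 (GRCm38, minus strand). Each library has 1 value for the gene, which cannot show the exons that were read, so every direction given here follows the label alone.

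The CD8 label held in nearly all of these cells. Either chain of the CD8 coreceptor, Cd8a or Cd8b1, was found in 55 of 56 cells labelled KO and 26 of 28 labelled WT, and Cd4 was at 0 in all of them. Foxp3, the factor of regulatory T cells, was found in 2 cells labelled KO and 0 labelled WT. Cd8a averaged 8.21 ± 2.65 in cells labelled KO and 7.84 ± 3.34 in cells labelled WT, a difference of 0.37. The 16 housekeeping genes differed by a median of 0.03, with Hprt the lowest at -0.60, and none of them by 1 or more. That median was 1.54 in all cells with at least 1000 genes. It was -0.05 once the libraries lacking B2m or all Cd3 genes were out, with dividing cells still in.

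Differences were described as KO minus WT in mean log2(FPKM + 1), which follows both the level and the share of cells with any read. A gene entered this count when 20% or more of the cells of either genotype had it above 0, which left 5799 genes. Of these, 406 (7.0%) were higher by at least 1 in cells labelled KO and 638 (11%) were lower by at least 1. With 10% or more of the cells, the filter used for gene lists, 8497 genes were left. Of those, 5.07% were higher and 7.66% lower by at least 1, 45% were higher and 55% lower by any amount, and the median difference was -0.06. The genes furthest up in cells labelled KO were Rnf7, Abhd8, Rela, Il7r, Ppp1r15a, Ndufs7, Eif4a3, Rab7, Shmt2, Bzw2, Tuba1b and S1pr1. The genes furthest down were Ikzf3, Serpina3g, Pdcd1, Lag3, Havcr2, Rbms1, Zbp1, Ccl4, Gzmk, Ccl3, Emc10 and Lims1. For each of these 24 genes the lowest cell of either genotype was at 0, so the values of single cells overlapped between genotypes.

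**Figure D1:**
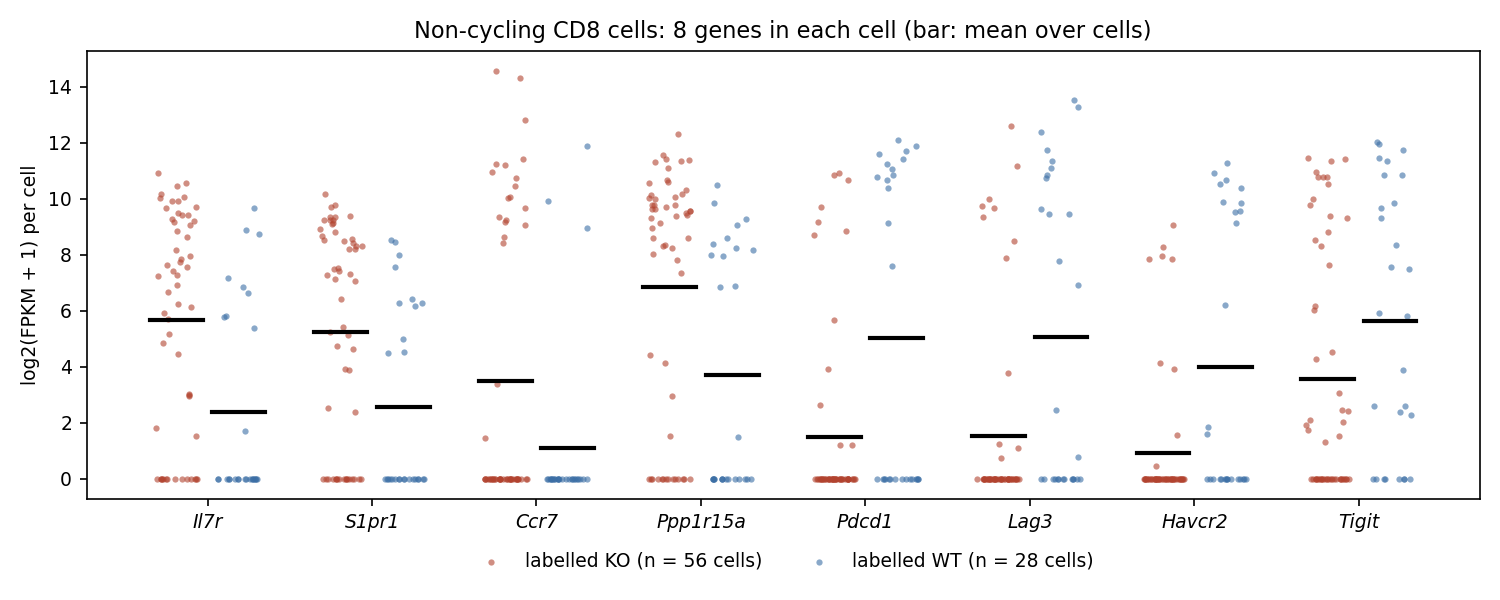
Each point is 1 cell, with log2(FPKM + 1) on the vertical axis and 8 genes along the horizontal axis, cells labelled KO (red, n = 56) left of cells labelled WT (blue, n = 28), and black bars mark means over cells. Most of the difference lies in how many cells are at 0: Il7r was above 0 in 42 cells labelled KO and 10 labelled WT, and Pdcd1 in 12 labelled KO and 13 labelled WT.

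Genes of memory and recirculating T cells were higher in cells labelled KO. Il7r encodes the IL-7 receptor alpha chain, which carries a survival signal for resting T cells. It was above 0 in 42 of 56 cells labelled KO (75%, 61.6 to 85.6%) and 10 of 28 labelled WT (35.7%, 18.6 to 55.9%). Per cell its log2 value had a median of 7.08 and a highest value of 10.92 in cells labelled KO, against a median of 0 and a highest value of 9.69 in cells labelled WT. The means were 5.67 ± 3.95 in cells labelled KO and 2.38 ± 3.51 in cells labelled WT, a difference of 3.28. Il7r was thus found in most cells labelled KO and in a minority of cells labelled WT. Where it was found, its median was 7.91 in cells labelled KO and 6.75 in cells labelled WT. The gene lies on chromosome 15 at 9505788 to 9530176 (GRCm38).

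S1pr1 and Ccr7, receptors that guide T cells out of tissue and into lymph nodes, followed the same direction. S1pr1 was above 0 in 39 of 56 cells labelled KO and 11 of 28 labelled WT, with a median of 7.08 in those labelled KO and 0 in those labelled WT. Its highest value was 10.17 in cells labelled KO and 8.54 in cells labelled WT. Its means were 5.23 ± 3.88 in cells labelled KO and 2.56 ± 3.36 in cells labelled WT, a difference of 2.67. Ccr7 was above 0 in 20 of 56 cells labelled KO and 3 of 28 labelled WT, and its mean differed by 2.41. Among other egress and positioning receptors, Gpr183 differed by 1.73 and S1pr4 by 1.63.

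The transcription factors of naive and memory cells differed less than these receptors. Tcf7, which encodes TCF-1, was above 0 in 35 of 56 cells labelled KO and 15 of 28 labelled WT. It averaged 4.77 ± 3.98 in cells labelled KO and 3.79 ± 4.22 in cells labelled WT, a difference of 0.98. Lef1, its relative, averaged 3.45 ± 3.82 in cells labelled KO and 3.36 ± 3.47 in cells labelled WT, a difference of 0.09. Satb1, a chromatin organiser of T cells, differed by 1.51 and Klf2, which drives S1pr1 transcription, by 0.62. When cells were compared only with cells of a similar number of genes, Tcf7 differed by 0.47, a small difference against its SD over cells. Of the 20 naive and memory genes above the 10% filter, 16 were higher and 4 lower, 6 were higher by at least 1 and 0 lower by at least 1, and the median was 0.67 against -0.06 over all genes. Cd27, a costimulatory receptor of memory cells, had the lowest value, -0.67.

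**Figure D2:**
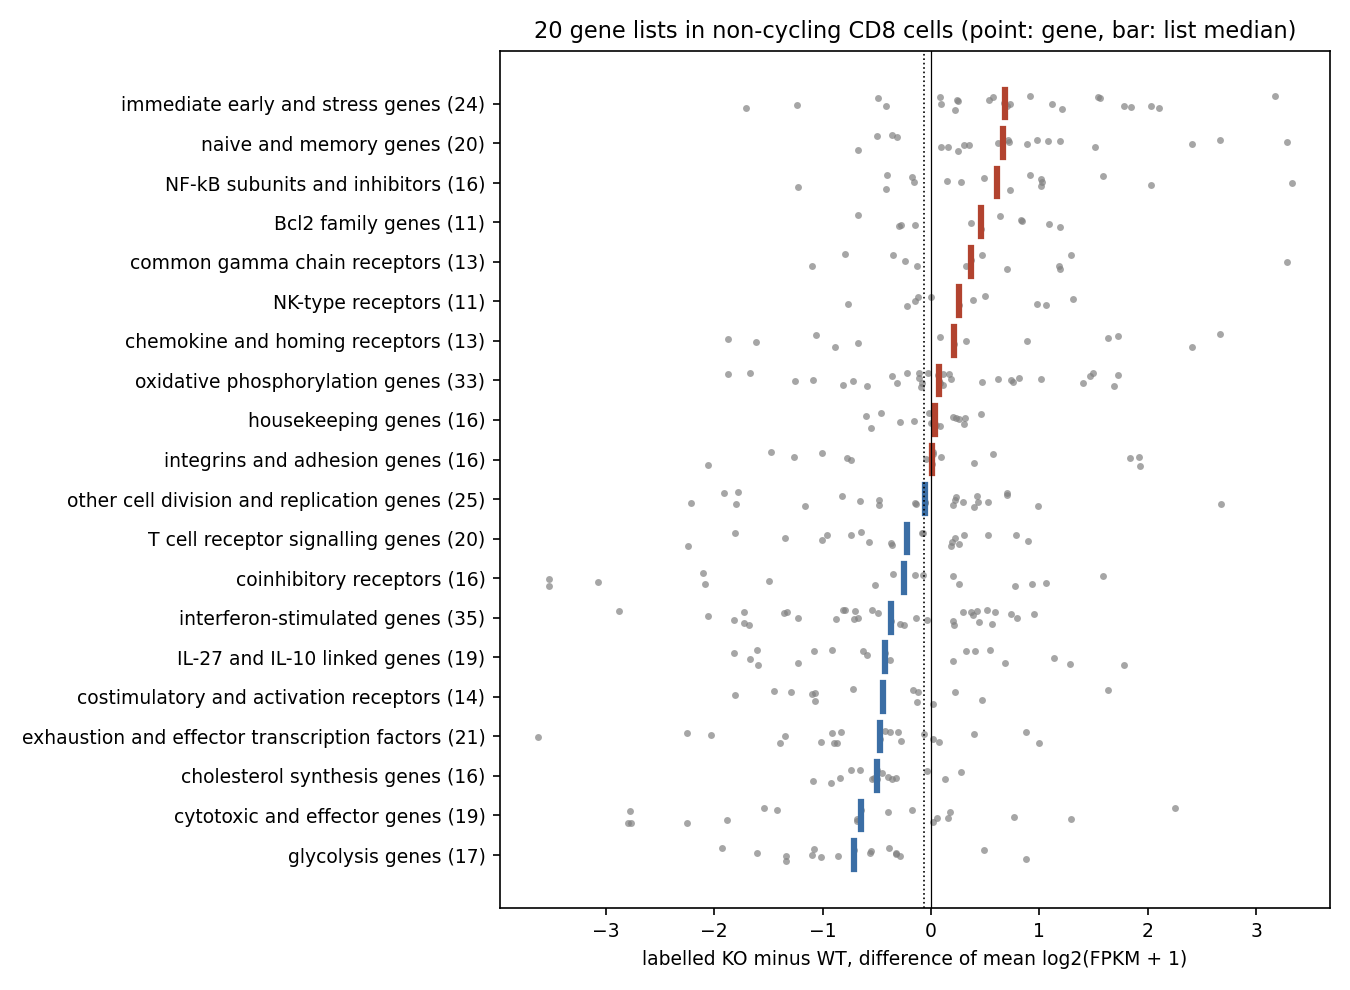
Each grey point is 1 gene of a list, placed by its KO minus WT difference of mean log2(FPKM + 1) in non-cycling CD8 cells, and each coloured bar is the median of the list, with the number of genes in brackets; the dotted line is the median over all genes. Lists run from immediate early genes (0.69) and naive and memory genes (0.67) at the top to cytotoxic genes (-0.65) and glycolysis genes (-0.71) at the bottom.

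The receptors of exhausted T cells were lower in cells labelled KO. Pdcd1, which encodes PD-1, was above 0 in 12 of 56 cells labelled KO (21.4%, 11.6 to 34.4%) and 13 of 28 labelled WT (46.4%, 27.5 to 66.1%). The median cell of either genotype was at 0, and the highest cell reached 10.91 among those labelled KO and 12.12 among those labelled WT. Its means were 1.49 ± 3.35 in cells labelled KO and 5.02 ± 5.55 in cells labelled WT, a difference of -3.53. Cells in which it was found also had different levels, with a median of 8.78 in those labelled KO and 11.08 in those labelled WT. The gene lies on chromosome 1 at 94038305 to 94052553 (GRCm38).

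Lag3, an inhibitory receptor that binds class II molecules, was above 0 in 12 of 56 cells labelled KO and 15 of 28 labelled WT. It averaged 1.53 ± 3.52 in cells labelled KO and 5.05 ± 5.47 in cells labelled WT, a difference of -3.52. Havcr2, which encodes TIM-3, was above 0 in 9 of 56 cells labelled KO and 13 of 28 labelled WT, and it averaged 0.91 ± 2.43 in cells labelled KO and 3.98 ± 4.87 in cells labelled WT, a difference of -3.07. Lag3 and Havcr2 were thus each found in a minority of cells labelled KO and in about as many cells as not of those labelled WT. Tigit, an inhibitory receptor that binds CD155, was above 0 in 29 of 56 cells labelled KO and 20 of 28 labelled WT. The Tigit mean was 3.56 ± 4.39 in cells labelled KO and 5.64 ± 4.71 in cells labelled WT, a difference of -2.08. Entpd1, which encodes CD39, an ectoenzyme of terminally exhausted cells that degrades ATP, was found in 4 of 56 cells labelled KO and 10 of 28 labelled WT and differed by -2.10. Other coinhibitory genes went the other way: Nt5e, which encodes CD73, the enzyme that acts after CD39, differed by 1.59 and Klrc1, the inhibitory NKG2A chain, by 1.06. Of 16 coinhibitory genes above the filter, 6 were higher and 10 lower, 2 were higher by at least 1 and 6 lower by at least 1, and the median was -0.25.

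Detection of several receptors in 1 cell was counted as well. All of Pdcd1, Lag3, Havcr2 and Tigit were above 0 in 4 of 56 cells labelled KO (7.14%, 1.98 to 17.3%) and 10 of 28 labelled WT (35.7%, 18.6 to 55.9%). None of them was found in 22 of 56 cells labelled KO (39.3%, 26.5 to 53.2%) and 6 of 28 labelled WT (21.4%, 8.30 to 41%). The mean number per cell was 1.11 in cells labelled KO and 2.18 in cells labelled WT. Il7r without Pdcd1 was found in 35 of 56 cells labelled KO (62.5%, 48.5 to 75.1%) and 6 of 28 labelled WT (21.4%, 8.30 to 41%). Pdcd1 without Il7r was found in 5 of 56 cells labelled KO (8.93%, 2.96 to 19.6%) and 9 of 28 labelled WT (32.1%, 15.9 to 52.4%). Tcf7 with Pdcd1, the pair used to mark precursors of exhausted cells, was found in 8 of 56 cells labelled KO and 2 of 28 labelled WT. A read missing by chance puts a cell at 0, so these are shares of cells with reads and not of cells that express a gene.

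**Figure D3:**
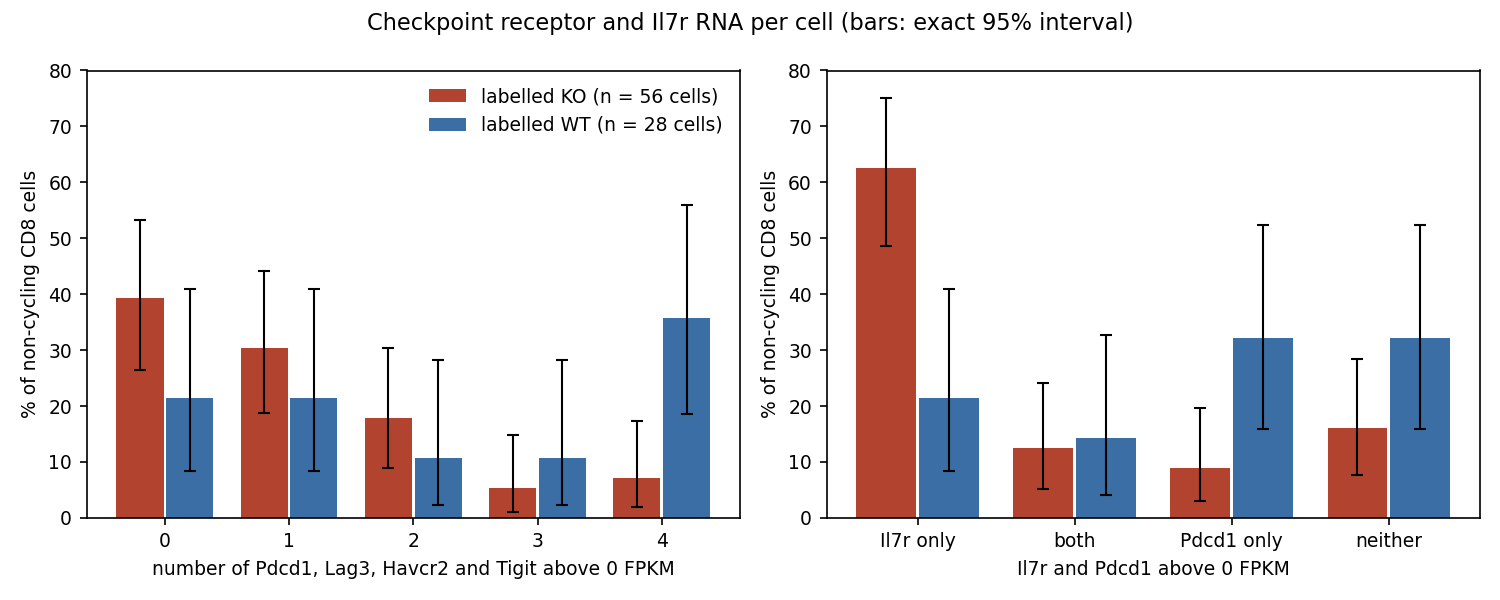
Bars give the percent of non-cycling CD8 cells labelled KO (red, n = 56) and WT (blue, n = 28) by the number of Pdcd1, Lag3, Havcr2 and Tigit above 0 FPKM (left) and by detection of Il7r and Pdcd1 (right), with exact 95% intervals. Cells with all 4 receptors made up 7.14% of those labelled KO and 35.7% of those labelled WT, and cells with Il7r but not Pdcd1 made up 62.5% of those labelled KO and 21.4% of those labelled WT.

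Effector genes and factors of exhausted cells were mostly lower in cells labelled KO. Ikzf3, which encodes the lymphoid zinc finger factor Aiolos, had the largest negative difference. It was above 0 in 33 of 56 cells labelled KO and 25 of 28 labelled WT. The median cell stood at 1.94 among those labelled KO and 7.24 among those labelled WT. Ikzf3 averaged 2.94 ± 3.10 in cells labelled KO and 6.57 ± 3.35 in cells labelled WT, a difference of -3.63. Tox, a driver of the exhausted state, was found in 10 of 56 cells labelled KO and 14 of 28 labelled WT and differed by -2.25. Bhlhe40, a factor of activated T cells, differed by -2.02, and Nfatc1, a factor activated by calcium signals, by -1.35. Of 21 such factors 5 were higher and 16 lower, 0 were higher by at least 1 and 6 lower by at least 1, and the median was -0.47.

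Among effector genes, Gzmk, a granzyme of effector memory cells, was above 0 in 10 of 56 cells labelled KO and 13 of 28 labelled WT and differed by -2.78. Ccl3 and Ccl4, chemokines that attract leukocytes, differed by -2.77 and -2.79, with Ccl4 found in 15 of 56 cells labelled KO and 13 of 28 labelled WT. Ccl5, a chemokine of memory and effector cells, was found in most cells of both, 46 of 56 labelled KO and 27 of 28 labelled WT, and averaged 9.97 ± 5.10 in cells labelled KO and 12.22 ± 3.50 in cells labelled WT. Gzmb differed by -1.88 and Prf1, the pore-forming perforin, by -1.42. Gzma (1.29) and Serpinb9 (2.25), an inhibitor that shields cells from granzyme B, were higher in cells labelled KO. Of 19 cytotoxic and effector genes 7 were higher and 12 lower, 2 were higher by at least 1 and 7 lower by at least 1, and the median was -0.65. Serpina3g, a protease inhibitor of activated T cells with close paralogs that share reads, differed by -3.53 and is uncertain for that reason.

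Genes on the IL-27 and IL-10 axis were mixed. Stat3, which carries part of the IL-27 signal, differed by -1.67, and Il10ra, a receptor chain for IL-10, by -1.61. Il10 itself was found in 1 of 56 cells labelled KO and 5 of 28 labelled WT. Il12rb2, a chain of the IL-12 receptor, was above 0 in 22 of 56 cells labelled KO and 3 of 28 labelled WT and differed by 1.78, while Socs3, a feedback inhibitor of STAT3 signalling, differed by 1.28. Of 19 genes on this axis 8 were higher and 11 lower, 3 were higher by at least 1 and 6 lower by at least 1, and the median was -0.42. Among 35 interferon-stimulated genes 13 were higher and 22 lower, 0 were higher by at least 1 and 9 lower by at least 1, and the median was -0.37. Zbp1, a sensor of nucleic acids, had the largest difference of that list, -2.88, and was found in 11 of 56 cells labelled KO and 17 of 28 labelled WT. Gbp7, a guanylate-binding GTPase, differed by -2.05 and Tap1, a peptide transporter for class I molecules, by -1.72.

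Immediate early genes, which are transcribed within minutes of a stimulus, were higher in cells labelled KO. Ppp1r15a, which encodes the stress-induced phosphatase subunit GADD34, was above 0 in 42 of 56 cells labelled KO and 13 of 28 labelled WT. Its median was 9.22 and its highest value 12.33 in cells labelled KO, against a median of 0 and a highest value of 10.48 in cells labelled WT. The means were 6.86 ± 4.45 in cells labelled KO and 3.69 ± 4.29 in cells labelled WT, a difference of 3.18. Ier2 differed by 2.10, the AP-1 genes Fos by 1.84 and Junb by 1.56, and Dusp1, a phosphatase that ends MAP kinase signals, by 1.78. Dusp2 (-1.71) and Klf6 (-1.23) went the other way. Of 24 immediate early and stress genes 20 were higher and 4 lower, 9 were higher by at least 1 and 2 lower by at least 1, and the median was 0.69.

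NF-kB genes gave a median of 0.61 over 16 members, with 11 higher and 5 lower, 6 higher by at least 1 and 1 lower by at least 1. Rela, which encodes the main activating subunit, was above 0 in 33 of 56 cells labelled KO and 5 of 28 labelled WT. It averaged 4.41 ± 4.10 in cells labelled KO and 1.08 ± 2.60 in cells labelled WT, a difference of 3.33. Nfkbia, the inhibitor that NF-kB itself induces, averaged 7.69 ± 4.47 in cells labelled KO and 5.66 ± 4.75 in cells labelled WT, a difference of 2.03. Nfkbib, a related inhibitor, was lower in cells labelled KO, by -1.23 as KO minus WT.

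Promoter sequence is shown for Ppp1r15a and Nfkbia, the feedback genes with the largest differences of these lists that hold a searched motif. The 250 bases before each RefSeq gene start (GRCm38.p6) are given from 5′ to 3′ on the strand of the gene, and capitals mark the motif. The Ppp1r15a window is chr7:45526269-45526518 on the minus strand, with the cyclic AMP response element TGACGTCA beginning 12 bases before the start.
Ppp1r15a: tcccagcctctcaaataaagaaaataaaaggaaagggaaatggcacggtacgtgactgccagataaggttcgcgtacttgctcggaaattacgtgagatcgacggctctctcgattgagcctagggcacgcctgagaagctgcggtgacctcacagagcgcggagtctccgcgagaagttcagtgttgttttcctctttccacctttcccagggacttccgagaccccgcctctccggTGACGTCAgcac
The Nfkbia window is chr12:55492648-55492897 on the minus strand, with the NF-kB site letters GGGANNTTC, found 2 times, the nearer match beginning 28 bases before the start.
Nfkbia: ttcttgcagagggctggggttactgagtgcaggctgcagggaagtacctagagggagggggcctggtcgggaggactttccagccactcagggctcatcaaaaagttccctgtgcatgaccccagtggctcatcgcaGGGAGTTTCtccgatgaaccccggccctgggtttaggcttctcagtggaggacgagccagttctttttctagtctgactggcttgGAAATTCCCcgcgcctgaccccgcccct
These 2 motifs and the AP-1 letters TGANTCA were searched for on both strands in the windows of all 32851 RefSeq promoters. The searched windows also run a short way past each start, beyond the printed bases. Shares of all windows count windows, while counts in the gene sets count genes with a match in any of their windows. The matches in the printed windows do not overlap one another. Windows were at hand for 11 of the 12 genes furthest up, 8 of the 12 furthest down, 23 immediate early genes and 12 NF-kB genes. TGACGTCA was found in 1.79% of all windows, in 2 of the 11 furthest up (Ppp1r15a and Rnf7), 1 of the 8 furthest down, 3 of 23 immediate early genes and 1 of 12 NF-kB genes. GGGANNTTC was found in 3.94% of all windows, in 0 of the 11 furthest up, 1 of the 8 furthest down, 1 of 23 immediate early genes and 2 of 12 NF-kB genes (Nfkbia and Nfkb2). TGANTCA was found in 7.81% of all windows, in 0 of the 11 furthest up, 1 of the 8 furthest down, 1 of 23 immediate early genes and 3 of 12 NF-kB genes. These matches describe letters only, and no binding was measured.

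Several of the genes furthest up are general cell genes with no particular tie to T cells. Rnf7, a RING subunit of cullin ubiquitin ligases, had the largest positive difference. It was above 0 in 42 of 56 cells labelled KO (75%, 61.6 to 85.6%) and 6 of 28 labelled WT (21.4%, 8.30 to 41%), with a median of 7.18 in cells labelled KO and 0 in cells labelled WT. Rnf7 averaged 5.71 ± 3.65 in cells labelled KO and 1.49 ± 2.99 in cells labelled WT, a difference of 4.22. Abhd8, an alpha/beta hydrolase family gene, was found in 34 of 56 cells labelled KO and 4 of 28 labelled WT and differed by 3.48. Eif4a3, a helicase of the exon junction complex, differed by 2.84, Rab7, a GTPase of late endosomes, by 2.83, and Ndufs7, a subunit of respiratory complex I, by 2.86. Shmt2, a mitochondrial enzyme of folate metabolism, was found in 24 of 56 cells labelled KO and 3 of 28 labelled WT and differed by 2.74. Tuba1b, an alpha tubulin whose paralogs share reads, differed by 2.67, and Bzw2 by 2.73. Rab7, Shmt2, Bzw2, Ppp1r15a and Gzmk each overlap a gene on the other strand in the GENCODE annotation. The differences of those partners ran from -0.04 for Esm1 to 0.78 for Ankmy2, which overlaps Bzw2. Among the genes furthest down, Rbms1, an RNA-binding protein gene, differed by -2.93, Emc10, of the membrane protein insertion complex of the endoplasmic reticulum, by -2.73, and Lims1, an adaptor of integrin adhesions, by -2.67.

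Metabolic lists pointed mostly down. Of 17 glycolysis genes 2 were higher and 15 lower, 0 were higher by at least 1 and 7 lower by at least 1, and the median was -0.71. Tpi1, triosephosphate isomerase, differed by -1.93 and Slc2a1, the glucose transporter GLUT-1, by -1.34, while Eno1, an enolase, differed by 0.88. Of 16 cholesterol synthesis genes 2 were higher and 14 lower, 0 were higher by at least 1 and 1 was lower by at least 1, with a median of -0.50. Oxidative phosphorylation genes had a median of 0.08, with 18 of 33 higher and 15 lower, and members on both sides, from -1.87 for Ndufa4 to 1.72 for Atp5o. Costimulatory receptors had a median of -0.44, from -1.81 for Cd28 to 1.63 for Cd69, an early activation marker. Of the 14, 4 were higher and 10 lower, 1 was higher by at least 1 and 6 lower by at least 1. T cell receptor signalling genes had a median of -0.22, with Cd5, a receptor whose level follows receptor signal strength, at -2.24.

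The medians of the remaining lists were above the -0.06 of all genes. Bcl2 family genes had a median of 0.47, with the survival gene Bcl2 itself at 1.19 and the paralog Bcl2a1b, which shares reads with its copies, at 1.09. Common gamma chain receptor genes had a median of 0.37, from -1.10 for Il2rb, the shared IL-2 and IL-15 receptor chain, to 3.28 for Il7r. NK-type receptors had a median of 0.26, with Klrk1, which encodes NKG2D, at 1.31. Chemokine and homing receptors had a median of 0.21, with S1pr1 the highest at 2.67. Integrin and adhesion genes had a median of 0.01, with Icam1 at -2.06 and Amica1, an adhesion molecule of leukocytes, at 1.92.

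Cell division genes differed in both directions. Of 25 other division and replication genes above the filter 12 were higher and 13 lower, 1 was higher by at least 1 and 5 lower by at least 1, and the median was -0.05 against the -0.06 of all genes. At least 2 division genes other than Mki67 and Top2a were above 0 in 44 of 56 cells labelled KO and 27 of 28 labelled WT. Many of these values were low. Tyms, a division gene, was above 0 in 87.5% of cells labelled KO and 96.4% labelled WT, but above 10 FPKM in 5.36% and 39.3%. Without cells holding 2 or more such genes above 10 FPKM, 49 cells labelled KO and 24 labelled WT remained. The list of 25 had a median of -1.01 in all cells with at least 1000 genes, -1.35 after the filters on B2m and Cd3, and -1.69 among cells with Mki67 or Top2a. Dut (-2.22) and Mcm6 (-1.78), genes of nucleotide supply and replication licensing, and the chromatin genes Hmgn2 (-1.91) and Hmgb2 (-1.80) were still lower in cells labelled KO. Cdk1, the mitotic kinase, was found in 2 of 56 cells labelled KO and 5 of 28 labelled WT. Detection of Mki67 and Top2a alone therefore did not remove every cell with division RNA.

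**Figure D4:**
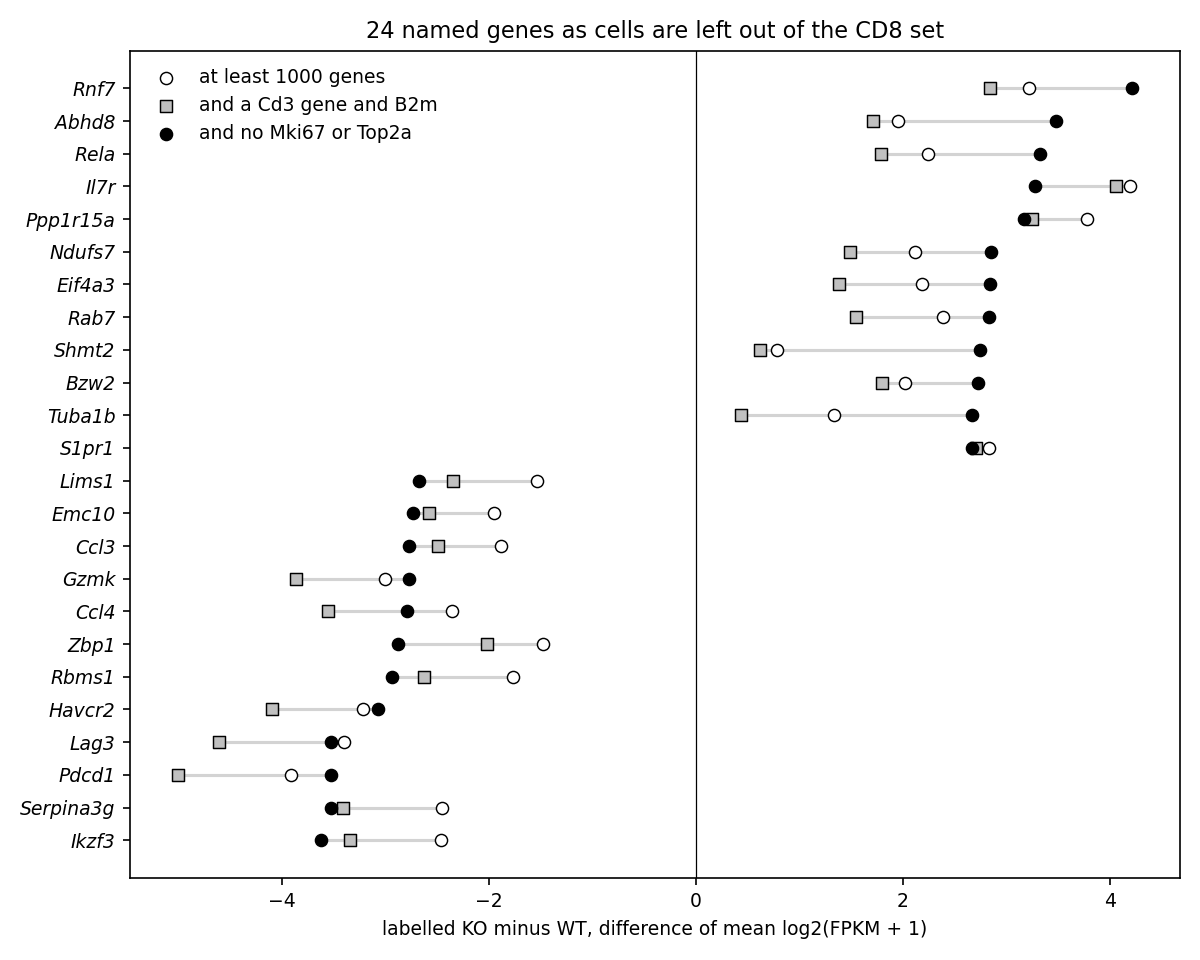
For each of the 24 genes furthest up and down, the horizontal axis gives the KO minus WT difference of mean log2(FPKM + 1) in CD8 cells with at least 1000 genes (open circle), in those that also had a Cd3 gene and B2m (grey square) and in those that also lacked Mki67 and Top2a (black circle). S1pr1 stayed between 2.67 and 2.84 over the sets, while Shmt2 and Tuba1b stood at 0.62 and 0.43 at the grey squares and at 2.74 and 2.67 at the black circles.

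The criteria changed which genes stood out. The sets share most of their cells, so what follows is a description. In all cells with at least 1000 genes, 8.05% of 6599 genes above the 20% filter were higher by at least 1 in cells labelled KO and 5.09% lower, and in non-cycling cells 6.26% and 9.73%. Of the 531 genes that made up the higher share at first, 40.3% still differed by at least 1 in non-cycling cells, 49% were smaller and 10.7% had the other sign. Of the genes lower by at least 1 at first, 50.6% still were, 42% were smaller and 7.44% had the other sign. Differences shifted down with the filters on B2m and on the Cd3 genes. Genes higher by at least 1 went from 8.05% to 2.50% of the 6599, and genes lower by at least 1 from 5.09% to 17.2%. After these filters 31.1% of the higher genes still differed by at least 1, and 91.7% of the lower ones, while 830 further genes became lower by at least 1. Leaving out dividing cells then kept 71.5% of the higher genes of that set and 41.9% of its 1138 lower genes. At that step 4.47% of the 6599 genes became higher by at least 1 and 2.50% became lower, so most of the 413 genes higher by at least 1 in non-cycling cells were below that size after the filters on B2m and Cd3 alone.

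Single genes show the same steps. Il7r differed by 4.20 in all cells with at least 1000 genes, by 4.06 after the filters on B2m and Cd3 and by 3.28 in non-cycling cells, and S1pr1 by 2.84, 2.71 and 2.67. Pdcd1 differed by -3.92, -5.01 and -3.53 over the same sets, and Lag3 by -3.40, -4.61 and -3.52. Tcf7 differed by 2.54, 2.39 and 0.98, so most of its difference went with the dividing cells. Junb differed by 3.74, 2.78 and 1.56, and the immediate early list had medians of 1.88, 1.08 and 0.69. Shmt2 differed by 0.79, 0.62 and 2.74 and Tuba1b by 1.34, 0.43 and 2.67, so these differences appeared mainly once the dividing cells were out. Atp5o, a subunit of ATP synthase, had the other sign while dividing cells were in, -0.21 against 1.72.

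Dividing cells of the same samples, 15 labelled KO and 28 labelled WT, gave the receptor differences but not most of the general ones. Over the 8497 genes of the 10% filter, 7.41% were higher by at least 1 and 20.7% lower by at least 1 in dividing cells labelled KO. Of the 12 genes furthest up in non-cycling cells, 4 were higher by at least 1 there, Il7r (4.32), Ppp1r15a (2.80), Rnf7 (2.00) and S1pr1 (1.12). Only 5 of the 12 kept their sign in dividing cells, the median of the 12 was -0.05, and Shmt2 stood lowest (-3.12). Of the 12 furthest down, 8 were lower by at least 1 there, among them Gzmk (-4.53), Havcr2 (-4.14), Lag3 (-4.03), Ccl4 (-3.95) and Pdcd1 (-3.66), while Zbp1 stood at 0.36. The difference between non-cycling and dividing cells was not tested.

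**Figure D5:**
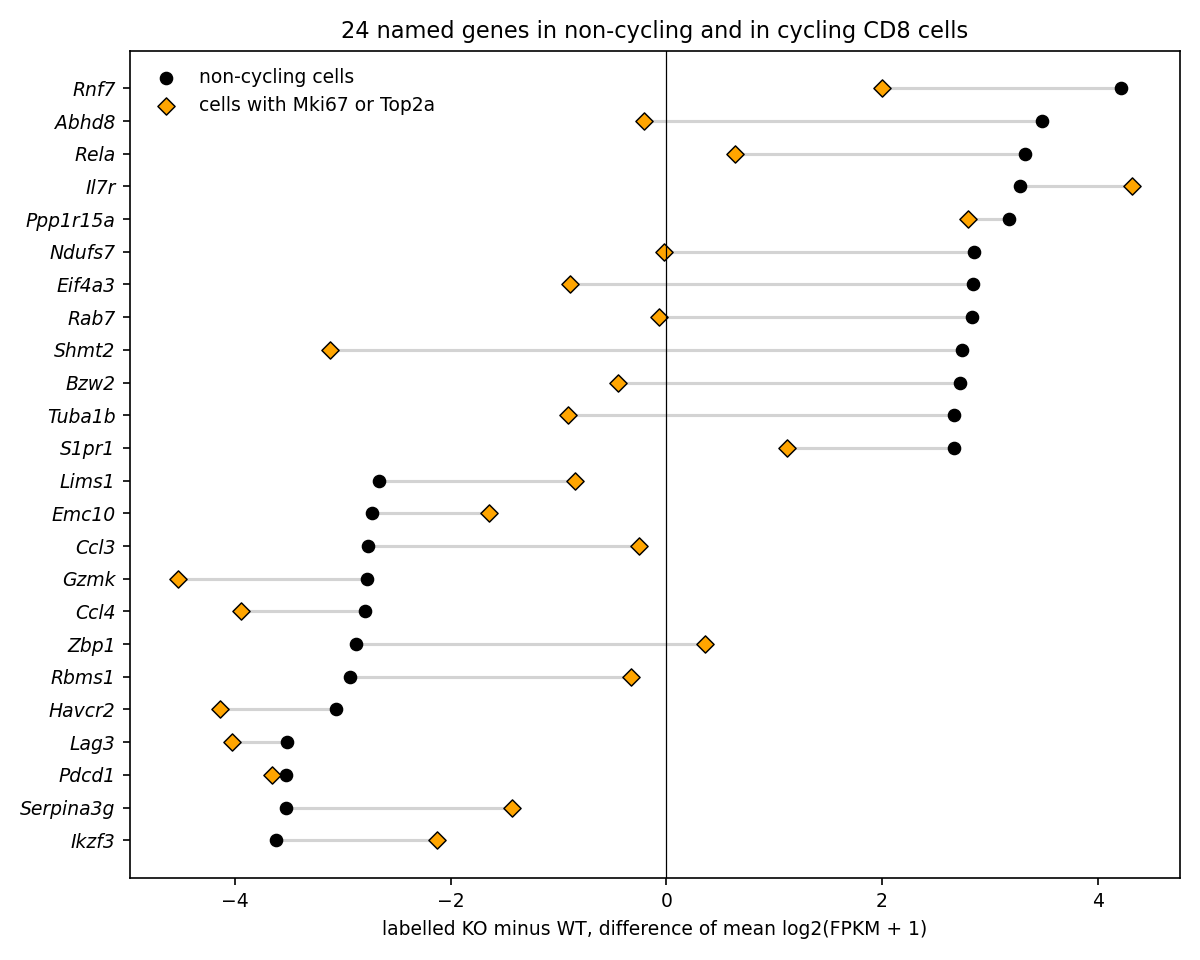
The KO minus WT difference of mean log2(FPKM + 1) is shown on the horizontal axis for the 24 genes furthest up and down in non-cycling cells (black circles, 56 cells labelled KO and 28 labelled WT) and for the same genes in cells with Mki67 or Top2a (orange diamonds, 15 labelled KO and 28 labelled WT). Il7r and the checkpoint receptors lie on the same side in both, while Shmt2 lies at 2.74 in non-cycling and -3.12 in dividing cells.

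The differences were also followed within cells of like Pdcd1 status, since Pdcd1 was found in unequal shares. The genes furthest up and down were chosen from these same cells. Their direction within the classes was therefore largely set by that choice, and the counts below are a description only. In cells with Pdcd1 at 0, 44 labelled KO and 15 labelled WT, each of the 12 genes furthest up was higher by at least 1, Il7r by 3.17 and Rnf7 by 3.27. There 9 of the other 11 genes furthest down were lower by at least 1, with smaller values for Lag3 (-1.15), Havcr2 (-1.02) and Gzmk (-0.53). In cells with Pdcd1 above 0, 12 labelled KO and 13 labelled WT, 11 of the 12 genes furthest up were higher by at least 1, with Rela (0.74) the exception, and each of the 12 furthest down was lower by at least 1. Il7r differed by 2.00 in those cells, Lag3 by -4.09, Havcr2 by -4.16 and Pdcd1 itself by -3.85. The naive and memory list had a median of 0.03 in cells without Pdcd1 and 1.01 in cells with it. Tcf7 changed sides between the classes, with -1.02 in cells without Pdcd1 and 3.18 in cells with it, and so did Cd8b1, with 2.86 and -3.67. These classes hold few cells. Of all genes counted, 11.5% in cells without Pdcd1 and 18.6% in cells with it were higher by at least 1. The shares lower by at least 1 were 13.5% in cells without Pdcd1 and 20.8% in cells with it.

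The CD8 population libraries, 1 of each genotype, gave the same sign for 7 of the 12 genes furthest up and 7 of the 12 furthest down. Of the 12 furthest up 2 were higher by at least 1 there, Il7r (3.24) and Ppp1r15a (2.48). Of the 12 furthest down 2 were lower by at least 1, Gzmk (-2.67) and Rbms1 (-1.16), while Pdcd1 differed by -0.51 and Lag3 by -0.25. Among the genes with the other sign were Serpina3g (1.76), Shmt2 (-1.19) and Tuba1b (-1.19). The median of all genes of the 10% filter was 0.07 between these libraries. The share of all genes that differed by at least 1 between them is not given here. The counts by at least 1 therefore have no background to be read against. Those libraries contain dividing cells and RNA of other cell types: the melanoma gene Pmel differed by -9.54 and the class II gene H2-Eb1 by 7.61 between them. In bulk libraries fewer cells of a type and less RNA per cell cannot be told apart.

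The genes around Il27ra were described as a list of their own. Within 2 Mb of it on chromosome 8, 40 of 81 genes passed the 10% filter, 24 were higher and 16 lower, 4 were higher by at least 1 and 4 lower by at least 1, and the median was 0.22. Over all 8497 genes of that filter 45% were higher and 55% lower, and the median was -0.06. Of those, 5.07% were higher and 7.66% lower by at least 1. The immediate early genes Ier2 (84661331 to 84662852) and Junb (84974484 to 84978718) are among those 4 higher, with Calr, an endoplasmic reticulum chaperone (1.21), and Farsa, a subunit of phenylalanine tRNA synthetase (1.35). Tecr, an enzyme of fatty acid elongation, was the lowest at -2.26, and Prdx2, a peroxidase whose annotated span overlaps Junb, was at -1.77. The labels do not describe the flanking chromosome of the IL27raKO mice, and its part in these values was not tested. Fos (1.84), Nfkbia (2.03), Dusp1 (1.78) and Ppp1r15a (3.18) lie on other chromosomes.

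Markers of other cell types differed in how often they were found. Of 12 macrophage and monocyte markers, 7 were at 0 in every cell labelled KO and 8 in every cell labelled WT, Csf1r and Emr1 among both, and any of the 12 was found in 7 of 56 cells labelled KO and 6 of 28 labelled WT. Class II genes were found in 5 of 56 cells labelled KO and 4 of 28 labelled WT, with a summed log2 level of 0 to 16 in cells labelled KO and 0 to 17.7 in cells labelled WT. Without the 7 cells labelled KO and 2 labelled WT that held 3 or more macrophage, class II or dendritic markers, 430 genes (7.72%) were higher by at least 1 and 687 (12.3%) lower. Any of 7 dendritic markers was found in 35 of 56 cells labelled KO and 16 of 28 labelled WT, with a median summed log2 level of 1.13 in cells labelled KO and 0.87 in cells labelled WT. Any of 4 neutrophil markers was found in 52 of 56 cells labelled KO and 27 of 28 labelled WT, with a median summed level of 2.62 in cells labelled KO and 3.24 in cells labelled WT, while their defining genes S100a8 and S100a9 were at 0 in every cell of both. Any of 6 NK markers was found in 20 of 56 cells labelled KO and 11 of 28 labelled WT. Cd79a, Ms4a1 and Pax5, which mark B cells, were at 0 in every cell of both. Tyr, a pigment gene, was above 0 in 53 of 56 cells labelled KO and 27 of 28 labelled WT, though never over 4.41 in cells labelled KO or 4.10 in cells labelled WT on the log2 scale. The part of dendritic, neutrophil, NK and pigment RNA in the differences above was not tested. Pmel, a more abundant pigment gene, was found in 4 of 56 cells labelled KO and 4 of 28 labelled WT.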

How the data were processed

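Single-cell and population libraries were made with Smart-seq2, a full-length cDNA method, with lysis in Buffer TCL, SPRI bead capture, 21 cycles of amplification and NexteraXT, per the labels' protocols. Bowtie, RSEM and the mm10 genome are named in the submitters' processing notes; versions and the gene annotation were not given in the sources used here. Deposited values are FPKM per gene, scaled across libraries by the authors with TMM factors, per the labels. FPKM hides depth: low values lay near whole reads (within 0.1) for a median of 67.6% of values in cells labelled KO and 68.4% in cells labelled WT, so no read depth is given. No molecular identifiers are described, and RSEM shares reads between similar transcripts.

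The table holds 23420 genes in 378 libraries. For each gene the mean log2(FPKM + 1) over cells was taken per genotype, with a pseudocount of 1, and differences are KO minus WT. Such differences understate folds of low genes and follow the share of cells at 0. With 1 sample per genotype no p-value or standard error was made. No doublet caller or clustering was used. A gene entered counts when 20% or more of the cells of either genotype had it above 0, and lists with 10% or more. The 20 gene lists and 11 marker lists were described by their median; the genes of the membership criteria were left out. The members and lists were chosen with earlier results of these data known. Named genes were the 12 furthest either way whose share of cells and whose difference in cells matched on genes detected (strata of 500 genes) had the same sign, without antigen receptor, predicted, RIKEN, mitochondrial, small nucleolar and microRNA genes; also Il27ra, the markers, the co-detection genes and the outermost 2 members of each list. Further list members were chosen after their values were seen. Coordinates are from GENCODE M21 (GRCm38), promoters from RefSeq (GRCm38.p6). The depth estimate and the differences were tested on simulated data. Python 3.11.15, numpy 2.4.6, pandas 2.3.3, scipy 1.17.1 and matplotlib 3.10.9 were used.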

Additional observations from a re-analysis of the deposited data

How the results depend on the processing

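The shares of genes higher (7.0%) and lower (11%) by at least 1 in cells labelled KO depended on the scale and on the cells taken. They were 13.9% higher and 21.4% lower with a pseudocount of 0.1, and 2.0% and 2.69% with a pseudocount of 10. With the log2 of mean FPKM 13.5% were higher. With libraries lacking B2m or Cd3 genes kept they were 21.6% and 2.54%, and with dividing cells kept 2.45% and 17.5%, while the median of all genes was 0.19 and -0.29. Cells with Pdcd1 at 0 gave 11.5% higher and 13.5% lower, and cells with Pdcd1 above 0 gave 18.6% and 20.8%. Rescaling each library to 1 sum, the minimum of genes, matching on genes detected, cells with a CD8 chain and no Cd4, and cells without other markers each kept both counts within 1.5 times. With no filter on low values 431 genes were higher and 651 lower, the same counts as with the 10% filter. As shares of all 23414 genes these were 1.84% and 2.78%. Over these alternatives 60.9% of the list medians and 73.7% of the single gene differences kept their sign within 1.5 times of their value or moved by less than 0.1. Of 23 list medians 6 did in cells with Pdcd1 at 0, where the naive and memory median was 0.03 against 0.67, and 2 with libraries lacking B2m or Cd3 genes kept. The sign changed for 8 list medians beyond 0.25 and 7 differences beyond 1. With libraries lacking B2m or Cd3 genes kept, the medians of costimulatory (0.14), cytotoxic (0.069), interferon-stimulated (0.33) and glycolysis genes (0.19) and the difference of Cd2 (0.50) were above 0. With dividing cells kept, the Bcl2 family (-0.45), Atp5o (-0.21) and Bcl2a1b (-0.45) were below 0. In cells with Pdcd1 at 0, costimulatory (0.047) and NK-type receptors (-0.20), Cyp51 (0.020) and Bcl2 (-0.62) changed sign, and in cells with Pdcd1 above 0 the Bcl2 family (-0.51), Bcl2a1b (-1.50) and Cd2 (0.51) did. The cause was not tested. Leaving out cells with 2 or more other division genes above 0 left 12 cells labelled KO and 1 labelled WT, so no value is given; above 10 FPKM, chosen after seeing the data, it left 49 and 24 cells, with 6.66% of genes higher and 14.5% lower. Counted above 10 FPKM, 88.9% of the shares of cells stayed within their interval. No paired analysis was possible because each genotype is 1 sample. The number of cells, and the lack of a second animal, limit each value.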
